A study of Mus musculus with 4 samples.

Results

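Brain endothelial nuclei were picked from single-nucleus RNA sequencing (snRNA-seq) of frozen brain sections by the transcripts they carried. A barcode was a member if it held at least 500 unique molecular identifiers (UMIs, tags that mark single captured transcripts), 200 to 2500 genes and at most 10% mitochondrial UMIs, had a UMI in at least 3 of 12 endothelial genes (*Flt1*, *Cldn5*, *Pecam1*, *Cdh5*, *Tek*, *Mecom*, *Ptprb*, *Adgrl4*, *Cyyr1*, *Slco1a4*, *Abcb1a* and *Emcn*) and in fewer than 2 of 6 mural genes (*Pdgfrb*, *Rgs5*, *Abcc9*, *Kcnj8*, *Atp13a5* and *Notch3*). This rule found 382 endothelial nuclei among 32806 passing barcodes, or 1.16%. All mice were female 5XFAD mice, whose transgenes are driven by the neuronal *Thy1* promoter and model amyloid pathology, and were 7 to 10 weeks old at administration. One group received PElow-EVs and the other PEhigh-EVs into the vein. Per the study's methods these are extracellular vesicles (EVs) rebuilt from the lipids of adipocyte EVs, low or high in phosphatidylethanolamine (PE), with transferrin attached. Each group had 2 libraries, each library pooled the nuclei of 2 mice, and mice without EVs were not analysed here. Whether the replicate numbers mark separate cohorts or days is not given in the sources used here.

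Endothelial cells line the vessels of the brain and form the blood-brain barrier, in which tight junctions close the gaps between cells while carriers, efflux pumps and receptors govern what passes through them. They are also a sensor of circulating signals. Interferons and inflammatory cytokines act on endothelial receptors and raise a set of antiviral, antigen-presenting, chemokine and adhesion genes.

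The 4 libraries held 41470611 and 43272337 UMIs (PElow-EV replicates 1 and 2) and 32515094 and 29472021 UMIs (PEhigh-EV replicates 1 and 2). The endothelial nuclei contributed 222835, 122448, 57297 and 68166 of them, in the same order, which is used for all 4 values given below. An endothelial nucleus held a median of 960, 1124, 814 and 739 UMIs, against 1769, 2223, 1406 and 1449 in the other passing barcodes. The median share of mitochondrial UMIs was 6.92%, 6.23%, 7.34% and 5.91% in endothelial nuclei and 4.13%, 3.45%, 4.93% and 3.46% in the others. The libraries shared 15 to 27 passing barcodes in each pair and 0 member barcodes. Levels are given below as counts per 1000000 UMIs (CPM) of the summed nuclei of a library, a scale on which genes are not compared with each other because it is not per length.

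The label was checked first against its defining markers, all of which the rule had used. *Flt1*, a receptor of vascular endothelial growth factor (VEGF), had a UMI in 91.6%, 87.4%, 88.2% and 77.1% of endothelial nuclei, and in 0.63% to 1.6% of the other barcodes. *Mecom*, a transcription factor, was found in 56.9% to 67.4% of members. *Ptprb*, a phosphatase that acts on the angiopoietin receptor, was found in 56.6%, 52.6%, 47.1% and 37.1%, and *Pecam1*, an adhesion molecule of the cell borders, in 28.3%, 21.1%, 33.3% and 17.1%. These genes chose the nuclei, so the values are a description and no support for the label. Of endothelial genes outside the gate, *Erg*, a transcription factor, was at 180, 204, 192 and 191 CPM in members and at 1.30 to 3.42 CPM in other barcodes, and *Itm2a*, a membrane protein gene, at 507, 604, 838 and 645 CPM against 6.13 to 11.4 CPM. Of the passing barcodes with fewer than 2 mural genes, 30365 had none of the 12 genes, 1747 had 1, 86 had 2, 62 members had exactly 3 and 247 members had 5 or more. The 86 barcodes just below the limit had a median of 1737 UMIs, and the 62 members just above it had a median of 824.

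Transcripts of other cells were present in the members. Of the 382 nuclei, 301 had UMIs in 2 or more markers of another cell type, and 199 had 1 of the 6 mural genes. The mural UMIs were nearly all *Rgs5*, a pericyte gene, at 669, 1209, 524 and 851 CPM in members and 6.81 to 19.5 CPM in other barcodes, whereas *Pdgfrb* and *Kcnj8* were at 0 UMIs in all members. The 10 neuronal markers summed to 4945, 2466, 3875 and 3961 CPM in members, below the 7328 to 8163 CPM of other barcodes, and *Syt1* was their most abundant gene. In barcodes with 100 to 300 UMIs, taken as a measure of free RNA, the same markers summed to 6619, 6501, 6589 and 6821 CPM. Microglial markers summed to 211 to 293 CPM in members, against 500 to 615 CPM in the near-empty barcodes. Macrophage and lymphoid markers were 5 UMIs in all, with *F13a1* and *Cd3e* at 0, and fibroblast markers were 14 UMIs, with *Lum*, *Bnc2* and *Ranbp3l* at 0. Free RNA and doublets were not removed, and their part in the levels below was not tested.

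PElow-EV replicate 1 stood apart from the other 3 libraries, including the other library of its own group, so its values are given separately throughout. The interferon list of 18 genes summed to 911 CPM in the endothelial nuclei of that library, and to 18612, 13317 and 16049 CPM in those of PElow-EV replicate 2 and PEhigh-EV replicates 1 and 2. This split ran within the PElow-EV group and did not follow the treatment labels. The labels name no batch that separates this library, and what set it apart was not tested.

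The shares of endothelial nuclei were compared first. They made up 1.79% of passing barcodes in PElow-EV replicate 1 (166 of 9281, exact 95% binomial interval 1.53% to 2.08%) and 1.31% in PElow-EV replicate 2 (95 of 7250, 1.06% to 1.60%). In PEhigh-EV replicate 1 they made up 0.643% (51 of 7929, 0.479% to 0.845%), and in PEhigh-EV replicate 2 0.839% (70 of 8346, 0.654% to 1.06%). Both PEhigh-EV libraries lay below both PElow-EV libraries. The group means were 1.55% ± 0.338 (SD, n = 2) and 0.741% ± 0.138 (SD, n = 2), a ratio of 0.478. The two-sided exact permutation test over the 4 libraries gave p = 0.333, the smallest value it allows for 2 against 2 libraries. This test therefore cannot reach 0.05 here. The intervals cover counting error only. Without PElow-EV replicate 1 the ratio was 0.565, and after each nucleus was thinned to 500 UMIs it was 0.494.

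**Figure D1:**
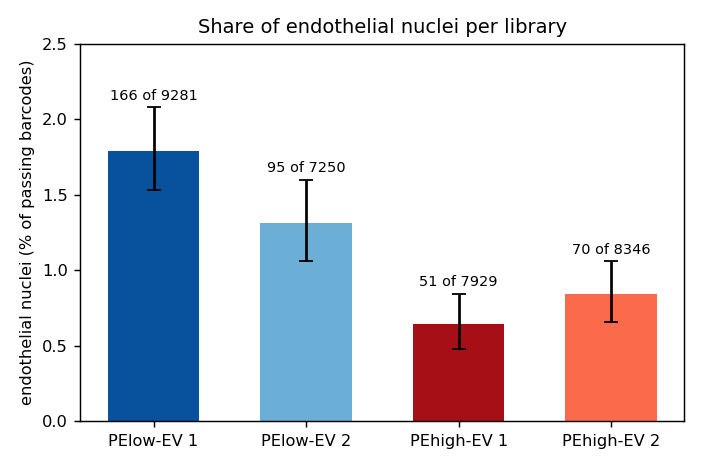
Bars give the share of endothelial nuclei among passing barcodes (y axis, percent) in each of the 4 libraries (x axis), with exact 95% binomial intervals and the counts of nuclei above. The PElow-EV bars stand at 1.79% and 1.31% and the PEhigh-EV bars at 0.643% and 0.839%.

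Barcodes with 3 or more endothelial genes that also had 2 or more mural genes numbered 71, 42, 28 and 24 (165 in all). They were left out of the members and count among the other passing barcodes throughout. They were 25.5% to 35.4% of all barcodes with 3 or more endothelial genes. Barcodes with mural genes alone numbered 19, 23, 11 and 8. With no limit on mural genes, an alternative added after the data were seen, the ratio of the endothelial shares between groups was 0.478.

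The 12 endothelial genes of the gate summed to nearly the same level in each library, 9684, 9808, 8465 and 9095 CPM, but their makeup differed. *Cldn5*, the main claudin of brain endothelial tight junctions (ENSMUSG00000041378, chr16:18776847-18778262, plus strand), stood at 835 CPM in PElow-EV replicate 1 and at 57.2, 209 and 161 CPM in the other libraries. It had a UMI in 95 of 166 nuclei of the first library, and in 7 of 95, 8 of 51 and 11 of 70 nuclei of the others. Over every deposited barcode, without any gate, *Cldn5* had 793 UMIs in PElow-EV replicate 1 and 55, 65 and 53 in the other 3 libraries. *Slco1a4*, an organic anion carrier of the barrier, was likewise highest in PElow-EV replicate 1, at 1930 CPM against 768, 471 and 880 CPM. *Emcn*, a sialomucin of capillaries and veins, was at 301 CPM against 73.5, 140 and 132 CPM.

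*Flt1* (ENSMUSG00000029648, chr5:147561604-147726011, minus strand) showed no such split in the members it helped to choose, at 2405, 2777, 2251 and 2112 CPM. Over all deposited barcodes it had 1659, 970, 522 and 505 UMIs. *Mecom* was at 884, 1160, 838 and 1115 CPM, *Ptprb* at 745, 613, 750 and 616 CPM and *Pecam1* at 269, 196, 332 and 220 CPM. *Cyyr1*, a transmembrane protein gene, went the other way from *Cldn5*, at 480 CPM in PElow-EV replicate 1 and 1470, 1483 and 1526 CPM in the others. The nuclei were therefore chosen by partly different genes in PElow-EV replicate 1 than in the other libraries.

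**Figure D2:**
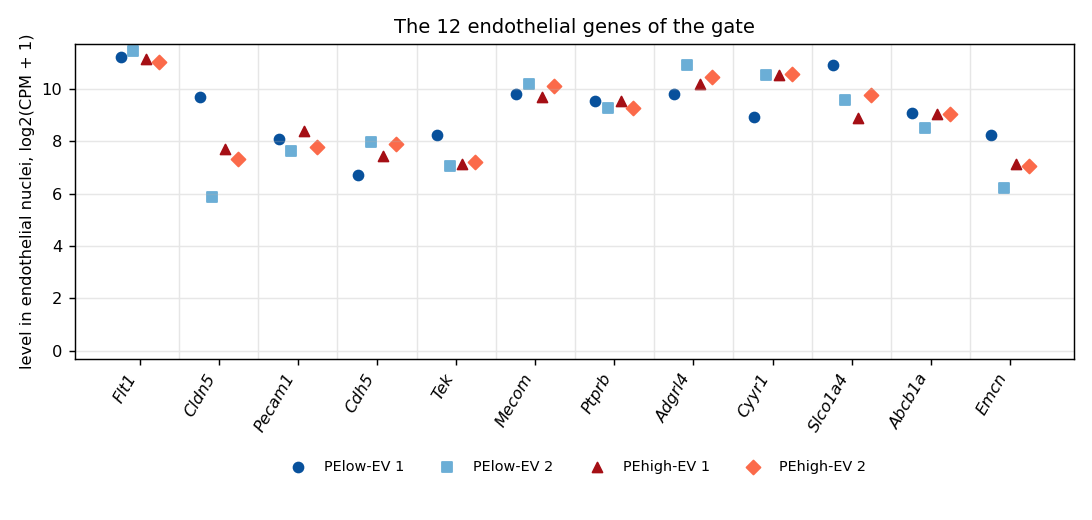
Level of each of the 12 endothelial genes of the gate (x axis) in the summed endothelial nuclei of each library (y axis, log2(CPM + 1), 1 point per library). *Flt1* and *Ptprb* lie close together in all 4 libraries, whereas *Cldn5* reaches 835 CPM in PElow-EV replicate 1 and at most 209 CPM elsewhere.

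The promoter of *Flt1* is printed as that of the gate gene found in the largest share of members. The sequence is from RefSeq (build GRCm38.p6, chr5:147726012-147726261, minus strand) and ends at the base before the transcription start. Capitals mark AGGAAG, the core that ETS factors such as *Erg* and *Fli1* recognise, searched on both strands. It begins 53 and 129 bases before the start.
Flt1: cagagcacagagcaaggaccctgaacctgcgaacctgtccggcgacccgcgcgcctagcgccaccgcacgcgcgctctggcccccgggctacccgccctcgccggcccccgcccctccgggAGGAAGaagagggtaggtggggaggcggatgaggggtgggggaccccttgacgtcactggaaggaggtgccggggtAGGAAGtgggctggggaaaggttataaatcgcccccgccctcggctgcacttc
The same letters occurred in 29.5% of the 32851 promoters of this length, in 6 of the 9 gate genes and in 9 of the 12 genes of the endothelial identity list that had a promoter in the table, so a match is common and is only a description.

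Interferon-induced genes split the endothelial nuclei by library and not by treatment. *Cxcl10*, a chemokine that draws activated T cells, lay outside the interferon list and was chosen after its values were seen. It had 0 UMIs in the 166 endothelial nuclei of PElow-EV replicate 1, which allows up to 3 UMIs, and 965, 325 and 347 UMIs in those of the other libraries, or 7881, 5672 and 5091 CPM. It was found in 0 of 166, 85 of 95, 47 of 51 and 64 of 70 endothelial nuclei. Over all deposited barcodes *Cxcl10* had 4, 3612, 1691 and 1447 UMIs, so the split was also present without the gate. *Cxcl9*, a related chemokine also chosen after its values were seen, had 0, 46, 15 and 37 UMIs.

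*Iigp1*, an interferon-induced GTPase that acts on intracellular pathogens, was at 13.5 CPM in PElow-EV replicate 1 and 3634, 2548 and 3110 CPM in the others. *Ifit1*, which binds viral RNA, was at 31.4 CPM against 3177, 2880 and 2978 CPM. *Ifit2* was at 13.5 CPM against 2164, 1187 and 2127 CPM. In each of these 3 genes the 3 high libraries lay far above the low one, and PElow-EV replicate 2 was above both PEhigh-EV libraries. Outside the list, *Rsad2* (viperin, an antiviral enzyme) was at 22.4 CPM against 4810, 2583 and 3037 CPM, and *Gbp5*, a guanylate-binding protein, at 13.5 CPM against 3830, 2897 and 4152 CPM. *Isg15*, a ubiquitin-like modifier on the list, was at 85.3 CPM against 1748, 1239 and 1526 CPM.

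Of other genes on the list, *B2m*, the light chain of class I molecules, was at 202 CPM against 1021, 541 and 616 CPM, and *H2-D1* at 103 CPM against 384, 279 and 176 CPM. *Irf1*, a transcription factor that interferons induce, had 4 UMIs against 59, 23 and 33 UMIs. *Cd274*, which encodes the checkpoint ligand PD-L1 and is not on the list, was at 4.49 CPM against 1127, 489 and 998 CPM. All 18 genes of the list were lowest in PElow-EV replicate 1.

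**Figure D3:**
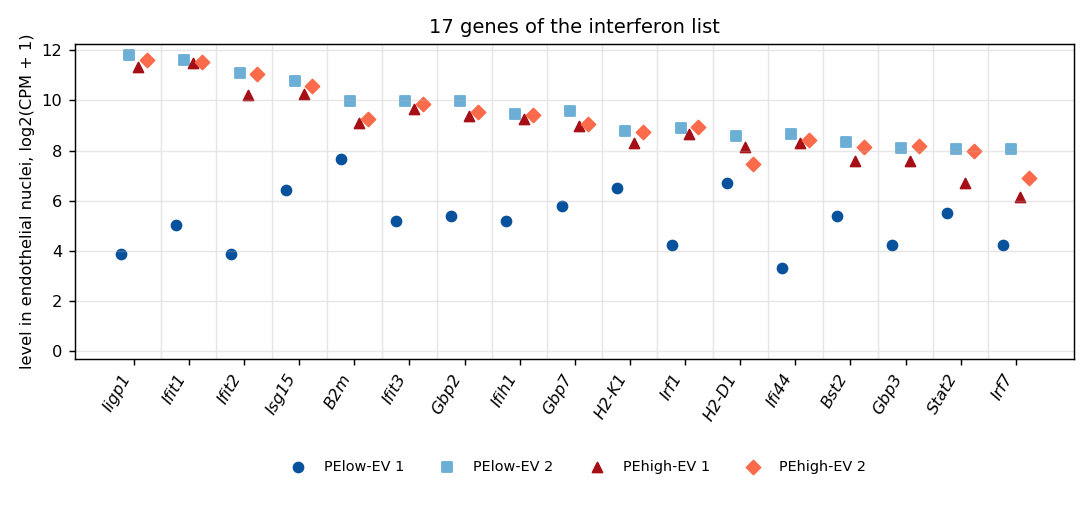
Level of 17 of the 18 genes of the interferon list (x axis, ordered by UMIs) in the summed endothelial nuclei of each library (y axis, log2(CPM + 1), 1 point per library). PElow-EV replicate 1 is the lowest point for all 17 genes, while PElow-EV replicate 2 lies below both PEhigh-EV libraries for none of them.

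The signal was spread over nearly all endothelial nuclei of the 3 libraries. UMIs in at least 3 of the 18 genes were found in 18 of 166 nuclei of PElow-EV replicate 1 (10.8%) and in 94 of 95 (98.9%), 47 of 51 (92.2%) and 70 of 70 of the others. After thinning each nucleus to 500 UMIs these shares were 2.41%, 89.5%, 82.4% and 87.1%. In the other passing barcodes, which include those with both endothelial and mural genes, they were 0.0219%, 0.825%, 0.444% and 0.447% after the same thinning. The median nucleus had UMIs in 1, 9, 7 and 7 of the 18 genes. Endothelial nuclei held 0.717%, 0.465% and 0.519% of the UMIs of passing barcodes in the 3 high libraries, but 41.4%, 31.6% and 37.3% of the UMIs of the interferon list. In PElow-EV replicate 1 they held 1.25% of all UMIs and 11.7% of those of the list.

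The list was then summed in barcodes that were not members. It came to 87.1, 190, 135 and 140 CPM in all other passing barcodes and to 165, 233, 198 and 228 CPM in near-empty barcodes. The other passing barcodes include those with both endothelial and mural genes, so their sums are not of non-endothelial cells alone. Barcodes with both endothelial and mural genes had 1631, 17608, 12753 and 17274 CPM, against 911, 18612, 13317 and 16049 CPM in the members, and barcodes with mural genes alone had 354, 1005, 686 and 2174 CPM.

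The promoters of 4 of these genes are printed because their transcripts moved together across the libraries. All are from RefSeq (build GRCm38.p6), run 5′ to 3′ for 250 bases and end at the base before the start. Capitals mark the letters of an interferon-stimulated response element (ISRE), searched as GAAA, any 2 bases and GAAA again, or on the other strand as TTTC, any 2 bases and TTTC. The *Cxcl10* window is chr5:92348890-92349139 (minus strand) with 1 match beginning 213 bases before the start, and the *Rsad2* window is chr12:26456453-26456702 (minus strand) with 1 match beginning 120 bases before it. The *Ifit1* window is chr19:34640639-34640888 (plus strand) with 2 matches, which begin 85 and 104 bases before the start. The *Isg15* window is chr4:156200819-156201068 (minus strand) with 3 overlapping matches that begin 66, 72 and 78 bases before it.
Cxcl10: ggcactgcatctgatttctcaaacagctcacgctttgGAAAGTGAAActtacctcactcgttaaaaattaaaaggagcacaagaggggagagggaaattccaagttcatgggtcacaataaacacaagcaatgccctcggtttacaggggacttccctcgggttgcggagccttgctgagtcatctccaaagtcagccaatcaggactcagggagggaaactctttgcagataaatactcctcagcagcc
Rsad2: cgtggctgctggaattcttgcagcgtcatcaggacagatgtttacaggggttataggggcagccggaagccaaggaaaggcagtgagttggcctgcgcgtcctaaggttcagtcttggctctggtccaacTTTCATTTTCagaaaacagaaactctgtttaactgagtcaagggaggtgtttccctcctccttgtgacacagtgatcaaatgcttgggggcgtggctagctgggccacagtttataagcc
Ifit1: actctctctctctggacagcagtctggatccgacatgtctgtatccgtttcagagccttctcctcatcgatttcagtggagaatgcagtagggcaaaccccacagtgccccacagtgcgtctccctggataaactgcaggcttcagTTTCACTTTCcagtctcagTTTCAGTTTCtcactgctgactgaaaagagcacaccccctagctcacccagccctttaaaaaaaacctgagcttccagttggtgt
Isg15: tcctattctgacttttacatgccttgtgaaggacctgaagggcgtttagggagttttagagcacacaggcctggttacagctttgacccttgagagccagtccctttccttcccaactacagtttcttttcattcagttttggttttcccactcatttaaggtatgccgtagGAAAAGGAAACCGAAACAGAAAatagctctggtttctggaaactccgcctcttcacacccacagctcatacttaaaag
Of all 32851 promoters of this length, 2.98% held the letters. Of the 18 interferon genes, 16 had a promoter in the table and 9 of these held the letters. In the endothelial identity list 0 of 12 genes held them, and among the gate genes 1 of 9. A match describes the letters only and is not evidence that a factor bound there.

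Some adhesion and inflammatory genes were also low in PElow-EV replicate 1. *Icam1* and *Vcam1*, the adhesion molecules on which leukocytes arrest, had 4 UMIs against 94, 42 and 36 UMIs, and 15 UMIs against 85, 34 and 70 UMIs. *Nfkbia*, the inhibitor that NF-κB induces, was at 193 CPM against 956, 716 and 601 CPM. *Lcn2*, lipocalin 2, had 0 UMIs against 27, 6 and 11 UMIs. The whole list of 21 adhesion and inflammatory genes summed to 1696, 4810, 4032 and 4548 CPM. *Vwf*, the von Willebrand factor of endothelial storage granules, was the other way round at 94.2, 24.5, 17.5 and 29.3 CPM. *Cxcl12*, the most abundant gene of the list, showed no split at 543, 702, 628 and 484 CPM. *Ccl2* had 0 UMIs in all endothelial nuclei. Among the apoptosis genes, *Cdkn1a*, an inhibitor of the cell cycle, was at 67.3, 964, 820 and 616 CPM and the death receptor *Fas* at 40.4, 547, 384 and 513 CPM.

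Genes of the barrier and of vessel maintenance ran in part in the opposite direction. *Tfrc*, the transferrin receptor, was at 377 CPM in PElow-EV replicate 1 and at 24.5, 52.4 and 88.0 CPM in the others, from 84, 3, 3 and 6 UMIs. In the other passing barcodes *Tfrc* was alike in all libraries, at 55.0, 46.2, 54.1 and 45.9 CPM. *Egfl7*, a secreted endothelial protein, was at 341, 65.3, 34.9 and 117 CPM, and *Id1*, a target of BMP signals, at 579, 172, 175 and 103 CPM. *Slc7a5*, the large neutral amino acid carrier, was at 341, 147, 140 and 132 CPM. *Slc6a6*, the taurine carrier, was at 799, 327, 506 and 396 CPM. *Slc2a1*, the glucose carrier of the barrier, did not follow them and was at 817, 1045, 768 and 675 CPM. *Tjp1*, a scaffold of tight junctions, was at 763, 956, 489 and 1159 CPM. Of the efflux pumps, *Abcg2* was at 435, 400, 436 and 293 CPM and *Abcc4* at 310, 588, 419 and 557 CPM. The solute carrier list of 21 genes summed to 4968, 3847, 3717 and 3374 CPM, and the junction list of 17 genes to 3146, 3397, 2566 and 3022 CPM.

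**Figure D4:**
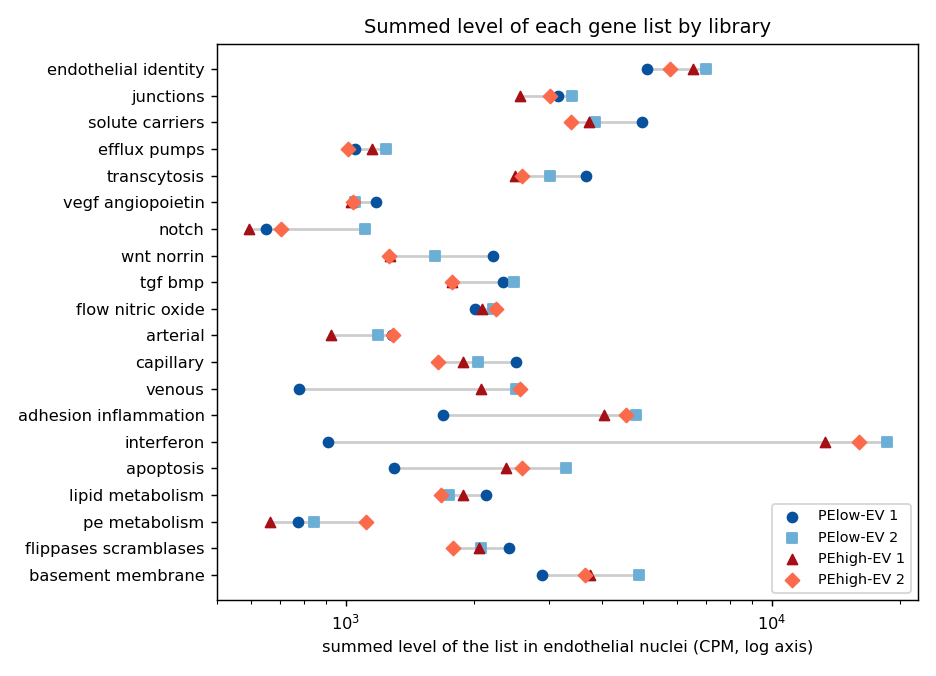
Summed level of each gene list (y axis) in the endothelial nuclei of each library (x axis, CPM on a log scale, 1 point per library, without the genes of the gate). The interferon list runs from 911 CPM in PElow-EV replicate 1 to 18612 CPM in PElow-EV replicate 2, the widest range of any list shown.

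Endothelial cells differ along the vessel from artery through capillary to vein. UMIs in 2 or more of 9 capillary genes were found in 107, 48, 24 and 27 nuclei, in 2 or more of 16 arterial genes in 53, 22, 8 and 19 nuclei, and in 2 or more of 13 venous genes in 29, 42, 18 and 28 nuclei. Of all members, 24 passed for both artery and vein and 88 for none of the 3. The venous list holds *Vcam1* and *Icam1*, whose levels are given above, and it summed to 776, 2515, 2077 and 2567 CPM. The capillary list, which holds *Tfrc* and *Slc7a5*, summed to 2509, 2042, 1885 and 1643 CPM. The arterial list summed to 1283, 1192, 925 and 1291 CPM, mostly from *Arl15* and *Stmn2*, which other barcodes also carried at 373 to 408 and 157 to 163 CPM. The arterial genes *Bmx*, *Gkn3*, *Cytl1* and *Gja4* had 2 to 4 UMIs each, and *Gja5* had 0. With so few UMIs per nucleus, single nuclei were not assigned to a vessel segment.

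The treatment comparison asked which genes differed between PEhigh-EV and PElow-EV endothelial nuclei. UMIs were summed per library and tested with the quasi-likelihood test of edgeR over 2222 genes outside the gate that passed a filter on low counts. With Benjamini-Hochberg adjustment at 0.1, 0 genes were higher (0.0%) and 0 were lower (0.0%). Of these genes, 30 had an unadjusted p under 0.05, and DESeq2 called 0 with 2 under 0.05. If no gene differed and the p-values were exact, about 112 of the 2235 genes fitted would lie under 0.05. Overlap between the treatment groups is judged here and below on CPM after edgeR's scaling between libraries (TMM). It can therefore differ from the unscaled CPM printed. Without overlap between the groups, 14.1% of the tested genes lay higher and 12.8% lower in both PEhigh-EV libraries. The libraries are separate pools of mice per group. The test sets the difference between groups against the spread between the 2 pools within each group, with information shared across genes. A p that misses the threshold does not show that levels were alike: the standard error of the log2 fold change was 1.63 for *Ifit1* and 0.32 for *Flt1*.

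The result turned on which PElow-EV library was kept. The 18 interferon genes all passed the filter, 0 were called, and their median log2 fold change was 0.63, beside 0.06 over all tested genes. With PElow-EV replicate 1 left out, the median of the list turned to -0.33, and 75 genes were called higher (3.92% of those tested) and 21 lower (1.1%). *Irf7* of the interferon list was then called lower, as was *Picalm* of the transcytosis list. With PElow-EV replicate 2 left out, the median was 3.96, 158 genes were called higher (8.14%) and 49 lower (2.52%), and 15 of the 17 interferon genes tested were among the higher. From the other lists, *Icam1*, *Vcam1*, *Nfkbia*, *Cdkn1a*, *Fas*, *Ly6a*, *Col4a1*, *Fn1* and *Etnk1* were then also called higher. *Tfrc*, *Id1*, *Slc7a5*, *Slc6a6*, *Slc39a10*, *Egfl7*, *Lef1*, *Apcdd1*, *Fzd6*, *Atp10a* and *Bcl2l1* were then called lower. In both of these fits 1 PElow-EV library is assumed to vary like the PEhigh-EV pair. With PEhigh-EV replicate 1 or 2 left out, 0 genes were called in either direction (0.0%).

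Other cells' markers moved with the genes called without PElow-EV replicate 1. *Kcnq5* of the neuronal list and *Gpc5* of the astrocyte list were among the higher genes, and *Mbp* and *Mobp* of the oligodendrocyte list, which encode myelin proteins, among the lower. The 7 oligodendrocyte markers summed to 1517, 2532, 1169 and 616 CPM in endothelial nuclei, and to 3384, 4139, 2278 and 2588 CPM in near-empty barcodes. Their part in these calls was not tested.

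The 5 genes with the smallest p in each direction whose groups did not overlap are given although none passed the threshold (adjusted p = 0.998 for each, edgeR). The filter on low counts can be met by the 2 libraries of either group alone. A gene can thus enter the test through the group in which it is higher, so these values are a description. Higher in PEhigh-EV libraries were *Adarb2*, *Morc3*, *Grid1*, *Smap2* and *Grm3*. *Morc3*, a chromatin protein, was at 58.3 and 89.8 CPM in the PElow-EV and at 227 and 176 CPM in the PEhigh-EV libraries (log2 fold change 1.49 ± 0.43 SE, unadjusted p = 0.0166 by edgeR). *Grid1* and *Grm3* are glutamate receptor genes, at 117 and 73.5 against 262 and 220 CPM, and at 135 and 106 against 244 and 249 CPM. Lower were *Nxph1*, *Cdh13*, *Sh3bgrl3*, *Zfp536* and *Bcl2l1*. *Bcl2l1*, which encodes the survival protein BCL-XL, was at 238 and 188 CPM in the PElow-EV and at 52.4 and 103 CPM in the PEhigh-EV libraries (log2 fold change -1.40 ± 0.45 SE, unadjusted p = 0.0266 by edgeR). *Nxph1*, a ligand of neurexins, was at 215 and 221 against 87.3 and 29.3 CPM.

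The lists named for vessel function gave 0 calls in this comparison. The counts without overlap that follow are on the scaled CPM and stand beside 14.1% higher and 12.8% lower over all tested genes. With so few genes per list nothing particular to a list is read from them. Of 12 junction genes tested, 1 lay higher and 4 lower without overlap, with a median log2 fold change of -0.32, and of 13 solute carriers 0 lay higher and 4 lower, with a median of -0.25. Of 13 endothelial identity genes, 2 lay higher and 3 lower. Of 10 adhesion and inflammatory genes, 1 lay higher and 0 lower, with a median of 0.32. Of 9 apoptosis genes, 0 lay higher and 1 lower, *Bcl2l1*. Of 6 genes of flow and nitric oxide signals, 4 lay higher and 1 lower, with a median of 0.41. Among the 4, *S1pr1*, the sphingosine-1-phosphate receptor, was at 171 and 302 CPM in the PElow-EV and at 314 and 352 CPM in the PEhigh-EV libraries. Of 5 Wnt and Norrin genes, 0 lay higher and 2 lower on the scaled CPM. On the unscaled CPM *Lef1*, *Apcdd1* and *Ctnnb1* each lay lower without overlap, *Ctnnb1* at 305 and 351 against 297 and 117 CPM. *Lef1*, the nuclear partner of β-catenin, was at 570 and 417 CPM in the PElow-EV and at 209 and 323 CPM in the PEhigh-EV libraries, with a log2 fold change of -0.86 that did not pass. *Nostrin*, which traffics nitric oxide synthase, was at 287 and 490 against 471 and 279 CPM.

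Beside the same 14.1% and 12.8%, of 11 basement membrane genes 0 lay higher and 3 lower, of 6 TGF-β and BMP genes 0 and 2, and of 5 transcytosis genes 0 and 2. Of 5 capillary genes 0 lay higher and 2 lower, with a median log2 fold change of -0.13, and the 4 venous genes tested, with a median of 0.60, overlapped. Of 4 lipid metabolism genes 0 lay higher and 1 lower. The 4 VEGF and angiopoietin, 3 arterial, 2 efflux pump and 1 Notch genes tested overlapped between the groups on the scaled CPM. On the unscaled CPM *Nrp1* of the VEGF list did not overlap, at 157.1 and 122.5 CPM in the PElow-EV and 122.2 and 117.4 CPM in the PEhigh-EV libraries. *Tfrc* did not pass the filter. Beside the same shares, of 4 oligodendrocyte markers tested 0 lay higher and 3 lower, with a median log2 fold change of -1.21, and the 1 marker tested of the second mural list, *Vtn*, lay lower at -1.05. Of 5 astrocyte markers 2 lay higher and 1 lower, and of 9 neuronal markers 1 and 1. None of these markers was called, and their part in the values of the other lists was not tested.

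Genes of PE metabolism had few UMIs in endothelial nuclei, at a summed level not far from that of other barcodes. They came to 772, 841, 663 and 1115 CPM in endothelial nuclei and to 827, 893, 833 and 855 CPM in other barcodes. The 17 genes, most of them enzymes of PE synthesis and remodelling, had 389 UMIs in all, and 2 passed the filter, *Etnk1* and *Chka*. *Etnk1*, the ethanolamine kinase, was at 180, 449, 297 and 499 CPM, with overlapping groups, and was called higher with PElow-EV replicate 2 left out but not with PElow-EV replicate 1 left out. *Pcyt2*, the next enzyme of the pathway, had 14, 1, 2 and 0 UMIs. Of 7 flippases and scramblases tested, 1 lay higher and 2 lower without overlap, beside 14.1% and 12.8% of all tested genes. *Atp10a*, a phospholipid flippase, was at 700 and 702 CPM in the PElow-EV and at 419 and 352 CPM in the PEhigh-EV libraries (log2 fold change -0.83 ± 0.39 SE), which did not pass (unadjusted p = 0.0833, adjusted p = 0.998, edgeR).

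Endothelial nuclei were then set against all other passing barcodes within the libraries. Because the nuclei were chosen by endothelial genes, genes transcribed along with them had to be higher, so the counts describe what else these nuclei carried. In edgeR with library as a term, 1769 of 14936 genes outside the gate were higher in endothelial nuclei (11.8%) and 2928 were lower (19.6%) at an adjusted p of 0.1. Of the 21 endothelial identity genes tested, 21 were higher, with a median log2 fold change of 5.92 beside -0.43 over all genes. *Ly6c1*, an endothelial surface protein, was at 996, 1446, 1152 and 983 CPM against 6.04 to 14.0 CPM, and *Nostrin* at 287, 490, 471 and 279 CPM against 2.60 to 4.48 CPM. Of 21 solute carriers 18 were higher and 1 lower, *Slc7a8*. Of 16 junction genes 10 were higher and 1 lower, *Jam3*. *Ocln*, occludin, had a log2 fold change of 5.04. Of 18 interferon genes, 18 were higher, with a median of 6.28.

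Of the 20 genes with the largest fold change among those outside the gate with at least 50 UMIs, past the threshold and higher in all 4 libraries, 3 were on the interferon list, *Iigp1*, *Ifi44* and *Gbp2*. The rest were *Tgtp2*, *Gbp9*, *Gbp4*, *Xdh*, *Gbp5*, *Rsad2*, *Tnfsf10*, *Tmem252*, *Slfn5*, *Fas*, *Sp100*, *Oasl1*, *Gbp8*, *Cd274*, *Ly6a*, *Gimap6* and *Adgrf5*. Several had few UMIs in PElow-EV replicate 1. *Gbp4*, a guanylate-binding protein gene, had 5 UMIs there and 123, 41 and 68 in the others. *Tnfsf10*, which encodes the death ligand TRAIL, had 9 against 146, 40 and 70. *Xdh*, xanthine dehydrogenase, had 32 against 117, 47 and 64. *Adgrf5*, an endothelial adhesion receptor among the same 20 genes, did not have few there, with 94 against 100, 37 and 50. These are raw UMIs, and the endothelial nuclei of PElow-EV replicate 1 held the most UMIs in total. Without PElow-EV replicate 1, 1567 genes were higher.

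Other lists are given beside the same 11.8% higher and 19.6% lower over all genes. Of 17 basement membrane genes tested, 15 were higher and 1 lower. The lower one, *Lamb1*, had 0 UMIs in endothelial nuclei. *Fn1*, fibronectin, was at 274, 751, 803 and 469 CPM against 4.36 to 5.48 CPM in others. Of 18 Wnt and Norrin genes 12 were higher and 0 lower, and of 10 Notch genes 7 were higher and 0 lower. *Foxq1*, a transcription factor of brain endothelium, was at 148, 73.5, 69.8 and 103 CPM against 0.326 to 1.08 CPM. Of 17 genes of PE metabolism 2 were higher and 5 lower, the former a share near that of all genes. *Mboat1*, a lysophospholipid acyltransferase, was one of the higher at 31.4, 57.2, 87.3 and 103 CPM against 3.42 to 6.60 CPM. Of 5 erythroid genes 4, all haemoglobin genes, were higher and 1 was lower, with *Hbb-bs* at 242, 572, 681 and 88.0 CPM against 24.4 to 44.7 CPM in other barcodes and 131 to 195 CPM in near-empty ones.

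**Figure D5:**
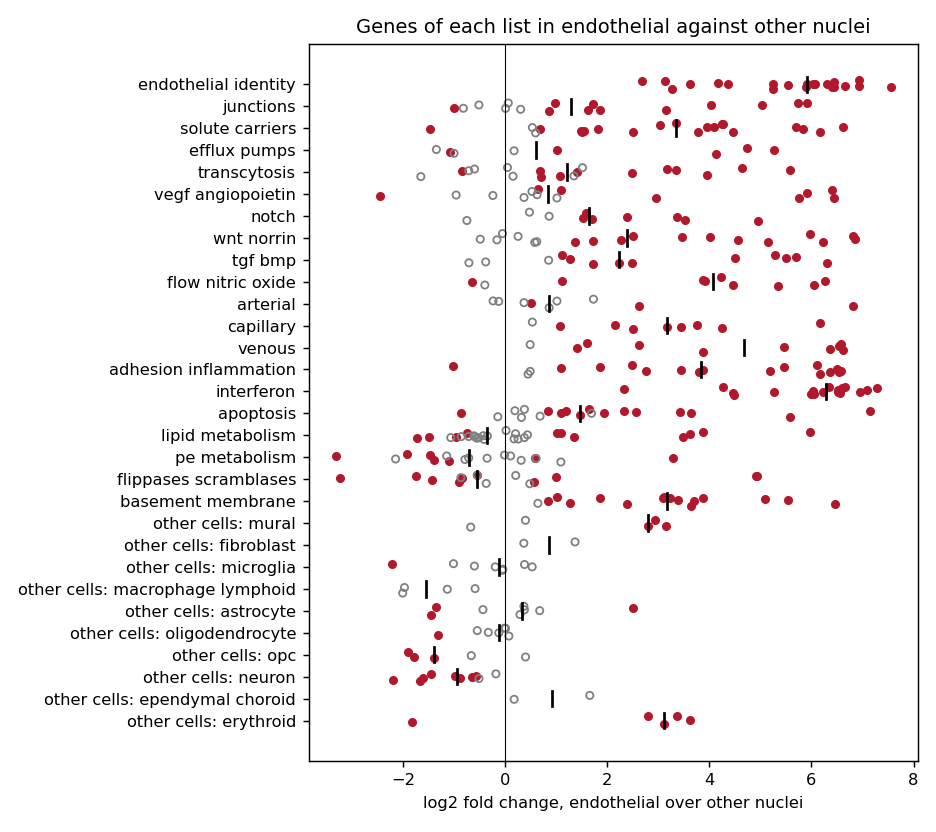
Log2 fold change of endothelial over other nuclei (x axis) for each tested gene with a UMI in endothelial nuclei, by list (y axis, without the genes of the gate). Filled points passed an adjusted p of 0.1 in edgeR, open points did not, and bars mark the median of the genes shown. The identity list lies around 5.92 and the interferon list around 6.28, while neuronal markers lie mostly below 0.

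The last comparison asked whether the treatment difference of a gene was larger or smaller in endothelial than in other nuclei. Of 15874 genes fitted with an interaction term, 1 passed at an adjusted p of 0.1 (0.0063%), *Adarb2*, an RNA-binding protein gene of interneurons. Its log2 fold change between PEhigh-EV and PElow-EV libraries was larger in endothelial than in other nuclei by 2.60 ± 0.56 (SE), with an adjusted p of 0.0490 in edgeR. No gene passed this test with DESeq2, with at least 5 of 12 endothelial genes or with at most 3% mitochondrial UMIs. *Adarb2* stood at 108, 49.0, 279 and 1027 CPM in endothelial nuclei and at 427, 548, 488 and 493 CPM in the other barcodes. In PEhigh-EV replicate 2, 59 of its 70 UMIs lay in 1 nucleus. The 3 endothelial nuclei with most *Adarb2* in each library held 79.2%, 100%, 87.5% and 97.1% of its UMIs in members. In near-empty barcodes *Adarb2* was at 40.1 to 59.9 CPM.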

How the data were processed

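Single-nucleus RNA of female 5XFAD brains came from 10x 3' v3.1 kits for 2 PElow-EV and 2 PEhigh-EV libraries. Matrices were made by the authors using Cell Ranger 7.1.0 and the mm10 build (submitters' processing notes). They deposited matrices of raw UMI counts per gene and barcode, without a normalization, and gene and barcode lists of another unit that served for names. Whether intronic reads were counted is not given in the sources used here. The study kept barcodes with at most 3% mitochondrial UMIs. Here the limit was 10%, since the former left 17 members.

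UMIs were summed per library over endothelial and over other barcodes (Python 3.11.15, numpy 2.4.6, scipy 1.17.1). After filterByExpr and TMM scaling, edgeR 4.0.16 (R 4.3.3) gave quasi-likelihood tests, with Benjamini-Hochberg adjustment over every gene tested and a threshold of 0.1. The 18 genes of the gate stayed in the fits and outside all counts of calls. Scripts were tested on simulated data, in which no library of a group stood apart as PElow-EV replicate 1 did here. No doublet caller was run.

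Named genes are, by rule, the 12 gate genes, the 3 most abundant members of each list, the 5 leading genes per direction of the treatment comparison, the 20 largest fold changes against other barcodes among called genes outside the gate (at least 50 UMIs, higher in all 4 libraries), genes of the interaction, the most abundant marker of each other cell type, *Tfrc* and *Nostrin*. Other genes named singly, such as *Cxcl10*, *Cxcl9*, *Lcn2*, *Vwf*, *Egfl7* and *S1pr1*, were chosen after their values were seen. The members, lists and tests were chosen with earlier results of these data known. Alternatives were DESeq2 1.42.0, no filter on low counts, RLE factors, an adjusted p of 0.05, a replicate block, each library left out, 3% mitochondrial UMIs, at least 5 of 12 genes, no upper limit on genes, nuclei without other cells' markers and thinning to 500 UMIs. Limits of 15% mitochondrial UMIs and 1000 UMIs and no mural limit were added after the data were seen. Gene positions are from GENCODE M21 and promoters from RefSeq, both on GRCm38, the assembly of mm10. Some genes of the lists are not reported here by name.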

Additional observations from a re-analysis of the deposited data

Results flagged for a closer look

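*Adarb2* drew attention because the difference between treatments was not the same in endothelial and other nuclei by the test of the interaction, with a log2 difference of 2.60 in edgeR (adjusted p = 0.0490). The neuronal markers summed to 4945, 2466, 3875 and 3961 CPM in the endothelial nuclei of PElow-EV replicates 1 and 2 and PEhigh-EV replicates 1 and 2. In PEhigh-EV replicate 2, 59 of 70 *Adarb2* UMIs lay in 1 nucleus. With DESeq2 or with at least 5 of 12 endothelial genes, no gene passed the test of the interaction. The part of neuronal RNA in this result was not tested.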

How the results depend on the processing

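The lower share of endothelial nuclei in PEhigh-EV libraries kept its direction under the 12 alternatives run, 1 of which, without barcodes that had other cells' markers, is a share of a different population (34 of 129, 14 of 57, 11 of 131 and 22 of 160 barcodes). Ratios ran from 0.330 (at least 1000 UMIs) to 0.661 (at most 3% mitochondrial UMIs, where the groups overlapped and the exact permutation p was 0.667). For genes changed between treatments, no filter on low counts gave 2 calls (1 higher, *Adarb2*, and 1 lower, *Cobll1* with 77, 8, 1 and 1 UMIs), and leaving out each library gave 0 to 207 calls. The other alternatives gave 0. Genes higher in endothelial nuclei fell from 1769 to 27 with at most 3% mitochondrial UMIs, where 17 members were left, and to 115 of 461 tested genes without nuclei that had 2 or more markers of another cell type, and were 1333 to 1689 with each library left out. The 1 gene of the interaction became 0 with DESeq2, with at most 3% mitochondrial UMIs and with at least 5 of 12 endothelial genes, 2 without nuclei with other cells' markers, and 0 to 93 with each library left out. The 93 came without PElow-EV replicate 2, and 6 were called without PElow-EV replicate 1. The cause of these changes was not tested, apart from the fewer nuclei and genes named. Of 103 named genes tested for treatment, the sign of the uncalled log2 fold change turned in 35 of 97 without PElow-EV replicate 1 and in 20 of 101 without PElow-EV replicate 2. In the latter setting 44 passed the threshold, and in the former 6 did.

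The replicate numbers are shared by both groups, but no label says that they pair the libraries. Deviations of same-numbered libraries had a correlation of 0.113 over 2235 genes, and with 2 pairs the numbers were not taken as a pairing. With a replicate block 0 genes were called and 25 had an unadjusted p under 0.05. Depth limits the endothelial sums to 57297 to 222835 UMIs per library, so genes with few UMIs could not be compared.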
